A study of Mus musculus with 14 samples.

Results

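The comparison described here asks whether neurons of the SE line and neurons of the SA line responded to KCl to a different degree. Neurons from the cortex of mouse embryos at E16.5 were grown as primary cultures, and their RNA was sequenced. The mutants of the SE line carry the Brg1 allele S1382E, which puts a glutamate at residue 1382, and those of the SA line carry S1382A, which puts an alanine there. BRG1 is the product of Smarca4 and the motor subunit of BAF complexes, which use ATP to move nucleosomes. All 14 libraries of the series enter, as 7 cultures with a KCl library and a basal library each: SE1, SE2 and a wild-type littermate culture of the SE line, and SA1, SA2 and 2 wild-type littermate cultures of the SA line. KCl libraries had 50 mM KCl for 1 h on day 6 in vitro and basal libraries had none. To silence spontaneous activity, cultures had been given the sodium channel blocker tetrodotoxin (1 µM) and the NMDA receptor blocker APV (100 µM) on day 5, and the protocol does not set basal cultures apart. A culture here means libraries that share a name stem, and the labels do not state that they came from the same dish or embryos. Whether embryos were pooled, whether the alleles were homozygous, and the strain are not given in the sources used here, so p-values measure the spread between these cultures. The SE line had 1 wild-type culture. The response of a culture is its KCl level minus its basal level on a log2 scale, and the 3 responses of the SE line were set against the 4 of the SA line, wild types included. Genotype and line are therefore mixed in the contrast, and values within each genotype class are given below.

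High extracellular KCl depolarises neurons and opens voltage-gated calcium channels, and the calcium that enters activates kinases that phosphorylate CREB and, through ERK, the partners of SRF. Those factors switch on immediate early genes within minutes without new protein synthesis. Many of the first products are transcription factors of the AP-1, EGR and NR4A families, others damp the signal, and a later wave encodes synaptic and secreted proteins.

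The 14 libraries ranged in depth between 22625916 and 23096206 estimated counts, and 24682 to 25841 gene symbols had counts in a library. The lines differed in their cell type markers at basal, as sums over each list in CPM, the count scaled to the effective size of its library. Separation at basal was common: every SE-line basal library was above every SA-line one for 27.9% of all genes, and below for 27.8%. The counts of markers without overlap stand against these shares. Markers of glutamatergic neurons summed to 2359 to 2480 CPM in SE-line basal libraries, against 575 to 958 CPM in the SA line. Of these 8 markers, 6 were above the SA line. Astrocyte markers summed to 729 to 778 CPM in the SE line and 2065 to 3025 CPM in the SA line, with 7 of 9 below the SA line. Neural progenitor markers summed to 282 to 338 CPM in the SE line and 863 to 2853 CPM in the SA line, with 7 of 8 below and 1 above. GABAergic neuron markers summed to 174 to 187 CPM in the SE line and 492 to 562 CPM in the SA line, with 8 of 10 below. Oligodendrocyte lineage, microglia, vascular and meningeal markers also had lower sums in every SE-line basal library than in any SA-line one. Of the 8 oligodendrocyte lineage markers, 7 were below the SA line and 1 was above it. Of the 6 vascular markers tested, 4 were below the SA line, as were 7 of 8 microglia and 8 of 8 meningeal markers. Markers of choroid plexus and ependyma varied between cultures within both lines, from 23.9 to 196 CPM in SE-line and 244 to 961 CPM in SA-line basal libraries. None of the markers was at 0 in all libraries or averaged under 0.1 CPM. In such bulk samples, fewer cells of a type and less RNA per cell cannot be told apart. RNA of both sexes was present throughout the SE line, with Xist at 139 to 288 CPM and the Y-linked Ddx3y at 10.5 to 20.2 CPM in all 6 libraries. Each SA-line culture held RNA of a single sex, Xist in SA1 and the second wild type, and Ddx3y in SA2 and the first wild type. Line, cell make-up and sex make-up cannot be told apart in this design, and their part in the results below was not tested. The first wild-type culture of the SA line stood apart in several genes, and values without it are given where they matter.

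Of 17296 genes tested, 194 were called for a different response to KCl, which is 1.12% (edgeR quasi-likelihood test with a level per culture, Benjamini-Hochberg adjusted p under 0.05). The response was higher in the SE line for 151 genes (0.873%) and lower for 43 (0.249%). An unadjusted p under 0.05 was found for 2048 genes. Of the 151, 80 rose with KCl in both lines, 58 rose in the SE line and were not called in the SA line, 8 fell in the SA line and were not called in the SE line, 4 rose in the SE line and fell in the SA line, and 1 fell in both. Of the 43, 12 rose in the SA line and were not called in the SE line, 11 fell in the SE line and were not called in the SA line, 8 fell in both, 8 rose in both, and 4 fell in the SE line and rose in the SA line. Over all genes the SE line had 1268 that rose (7.33%) and 952 that fell (5.50%), and the SA line had 659 that rose (3.81%) and 568 that fell (3.28%). A gene called in 1 line and not in the other is not thereby shown to respond differently, and the 194 are those for which the difference itself passed. Responses of the lines did not overlap for 148 of the 151 genes, against 1206 of all genes (6.97%) with every SE-line culture above every SA-line one, and for 41 of the 43, against 679 (3.93%) in the other direction. The genes were called on these same responses, so the lack of overlap is a description. The differences reached 2-fold for 67 of the 151 and 16 of the 43. The count of called genes depended on single cultures. It was 126 without SE1, 356 without SE2 and 125 without the SE-line wild type, and between 135 and 206 when any SA-line culture was left out. For the genes lower in the SE line the count was 19, 140 and 22 without these SE-line cultures, 27 without SA2, 66 without the first and 27 without the second SA-line wild type. Without the culture term, treating the libraries as unpaired, 50 genes were called with 1 mean per line and treatment and 20 with 1 mean per group, and all of these were among the 194.

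**Figure D1:**
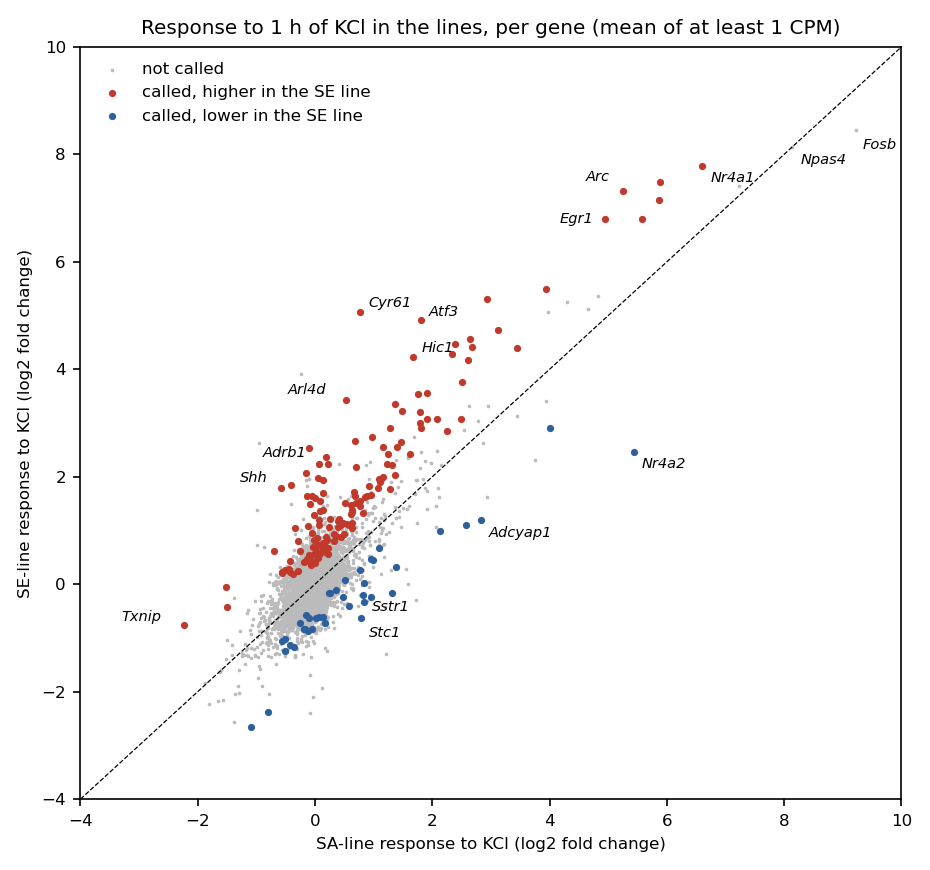
Response to KCl in the SE line (vertical axis) against the SA line (horizontal axis), each as the model's log2 fold change, for genes with a mean of at least 1 CPM; red and blue points are called genes with a higher or lower response in the SE line, grey points are not called, and the dashed line marks equal responses. Cyr61 lies farthest above the line at 5.07 against 0.77, Nr4a2 farthest below it among called genes at 2.47 against 5.43, and Npas4 lies on it at 8.13 against 8.14.

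Among called genes with a mean of at least 1 CPM, the largest positive difference in response belonged to Cyr61, which encodes the secreted matrix protein CCN1 (also named Ccn1; GRCm38 chromosome 3, 145646976 to 145649981, minus strand). It had 666, 565 and 646 CPM after KCl in SE1, SE2 and the wild type of the SE line, and 20.3, 13.5 and 22.6 CPM in their basal libraries. In SA1, SA2 and the first and second wild types of the SA line it had 112, 138, 224 and 124 CPM after KCl, and 43.9, 108, 136 and 76.6 CPM at basal. Every SE-line culture was above every SA-line culture after KCl and below all of them at basal. The response was 33.7-fold in the SE line and 1.71-fold in the SA line, a log2 difference of 4.30 ± 0.185 (standard error of the model, here and below; adjusted p = 3.4e-09). This difference lay between 4.12 and 4.47 over all 18 alternatives and was called in each.

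Atf3, a stress-inducible factor that pairs with AP-1 proteins (chromosome 1, 191170296 to 191218039, minus strand), had 165, 169 and 153 CPM after KCl in the SE line and 4.59, 6.16 and 5.43 CPM at basal. In the SA line it had 11.8, 13.8, 17.6 and 12.5 CPM after KCl and 3.53, 3.19, 5.95 and 3.34 CPM at basal. Basal levels of the lines overlapped and KCl levels did not. The fold changes were 30.1 in the SE line and 3.50 in the SA line, with a log2 difference of 3.11 ± 0.148 (adjusted p = 7.4e-09). Arl4d, a small GTPase of the ARF family (chromosome 11, 101665541 to 101667832, plus strand), had 263, 218 and 244 CPM after KCl in the SE line and 20.7, 23.6 and 23.05 CPM at basal. SA-line libraries had 11.7, 14.4, 17.6 and 12.9 CPM after KCl and 9.85, 9.28, 10.3 and 9.52 CPM at basal. The SE line was higher in both treatments, and the fold changes were 10.7 in the SE line and 1.45 in the SA line (log2 difference 2.89 ± 0.133, adjusted p = 6.4e-09).

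The most negative difference among called genes with a mean of at least 1 CPM belonged to Nr4a2, an orphan nuclear receptor of the NR4A family (chromosome 2, 57106830 to 57124003, minus strand). It had 595, 615 and 527 CPM after KCl in the SE line and 99.4, 109 and 105 CPM at basal. The 4 SA-line cultures had 173, 184, 179 and 192 CPM after KCl and 4.99, 4.34, 3.17 and 4.38 CPM at basal. Both treatments were higher in every SE-line library, and the response was smaller, 5.52-fold in the SE line and 43.2-fold in the SA line (log2 difference -2.97 ± 0.123, adjusted p = 3.4e-09). On a linear scale the order turned round: the mean change with KCl was 475 CPM in the SE line and 178 CPM in the SA line.

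**Figure D2:**
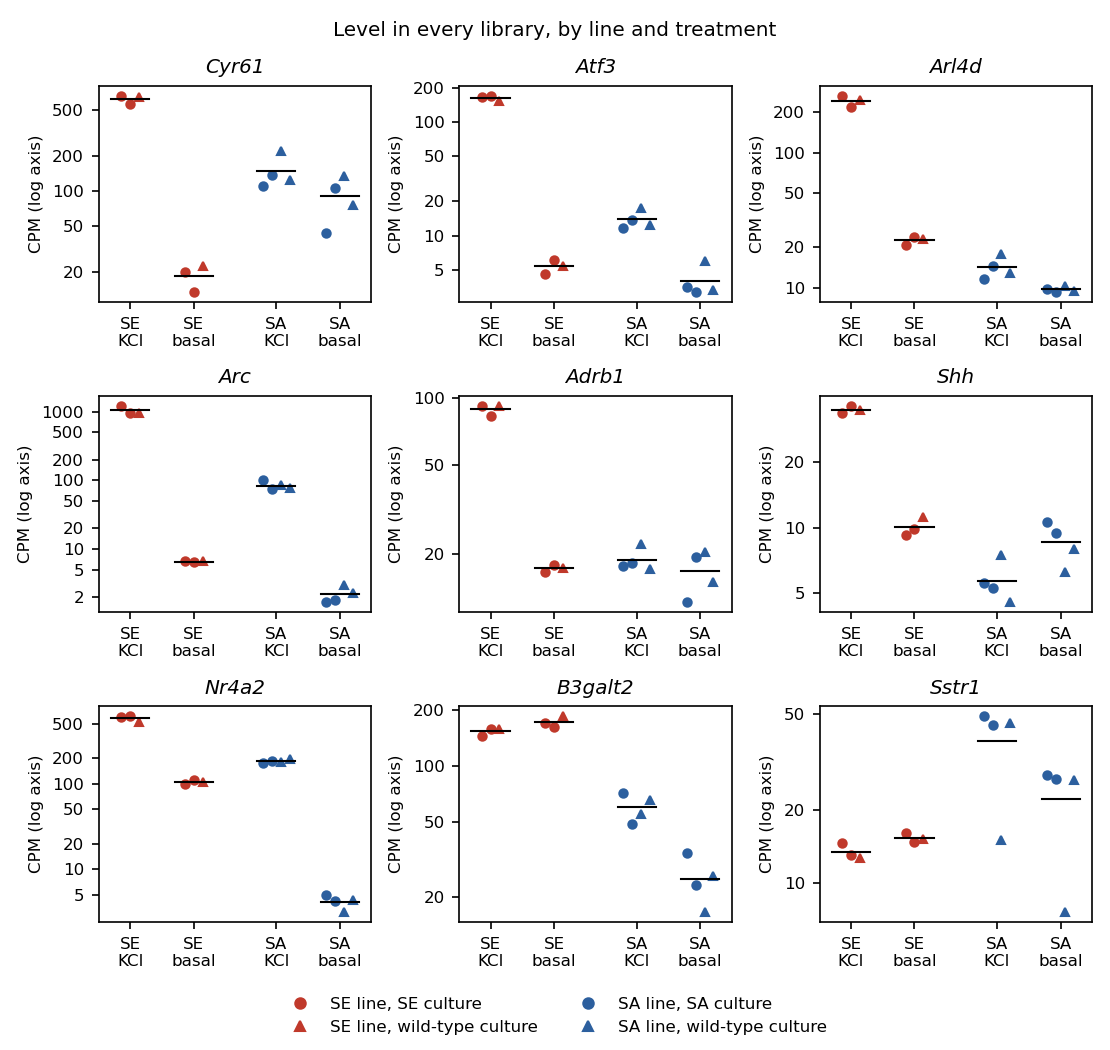
Level of 9 genes in every library, in CPM on a log axis, with the SE line in red and the SA line in blue, circles for mutant cultures, triangles for wild-type cultures, and a bar at each mean of 3 or 4 libraries. Cyr61, Atf3, Arl4d, Arc, Adrb1 and Shh have a wider step between KCl and basal in the SE line, while Nr4a2, B3galt2 and Sstr1 have a wider step in the SA line.

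CREB binds the cAMP response element (CRE), and the 250 bases before the RefSeq start are shown for Cyr61, Atf3, Arl4d and Nr4a2, which lie at the ends of the range of differences among called genes with a mean of at least 1 CPM (GRCm38.p6, 5′ to 3′ on the gene's strand). Capitals mark the CRE palindrome TGACGTCA or its shorter form TGACG, searched on both strands.
Cyr61, chr3:145649986-145650235, minus strand: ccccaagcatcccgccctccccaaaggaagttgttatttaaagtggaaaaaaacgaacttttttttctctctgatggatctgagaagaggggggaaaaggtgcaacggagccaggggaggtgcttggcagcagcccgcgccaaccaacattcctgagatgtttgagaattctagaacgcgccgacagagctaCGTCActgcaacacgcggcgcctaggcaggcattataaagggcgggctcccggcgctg
Atf3, chr1:191183334-191183583, minus strand: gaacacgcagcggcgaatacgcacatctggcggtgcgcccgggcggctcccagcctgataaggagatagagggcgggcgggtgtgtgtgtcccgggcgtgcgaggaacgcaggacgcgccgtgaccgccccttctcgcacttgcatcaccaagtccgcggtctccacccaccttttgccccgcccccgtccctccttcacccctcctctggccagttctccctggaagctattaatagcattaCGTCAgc
Arl4d, chr11:101665291-101665540, plus strand: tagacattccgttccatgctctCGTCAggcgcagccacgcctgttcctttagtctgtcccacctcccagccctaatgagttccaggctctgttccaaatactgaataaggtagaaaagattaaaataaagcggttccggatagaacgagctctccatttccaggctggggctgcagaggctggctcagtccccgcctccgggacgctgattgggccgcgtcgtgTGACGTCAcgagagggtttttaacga
Nr4a2, chr2:57124004-57124253, minus strand: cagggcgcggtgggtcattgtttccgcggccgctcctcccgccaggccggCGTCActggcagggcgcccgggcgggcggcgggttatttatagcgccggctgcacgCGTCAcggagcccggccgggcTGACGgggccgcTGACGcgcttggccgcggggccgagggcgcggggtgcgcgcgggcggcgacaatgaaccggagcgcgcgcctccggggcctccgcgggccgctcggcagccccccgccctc

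The palindrome was in the Arl4d window alone, beginning 26 bases before the start, and the shorter form also began at 228 there. The shorter form stood once at 58 bases before the Cyr61 start and once at 7 before the Atf3 start, and it began at 200, 144, 123 and 111 before the Nr4a2 start. Of 32851 windows of this length in the RefSeq table, 1.55% held the palindrome and 17.8% the shorter form, which also lies inside the palindrome. Among the 12456 tested genes with a window the shares were 2.91% and 28.8%. The AP-1 site TGANTCA (6.75% of windows) and the CArG box bound by SRF (1.47%) were in none of the 4 windows, and the EGR site GCGNGGGCG (4.70%) was in that of Nr4a2. All 4 windows shown held the shorter CRE form, and whether it relates to the response was not tested. The table held windows for 111 of the 151 and 30 of the 43 called genes, and for 12456 of the 17296 genes tested. Shares were not compared between these sets.

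AP-1 factors are dimers of FOS, JUN and ATF proteins that bind the same short site. Of 9 tested, all rose with KCl in both lines, and 7 had a higher response in the SE line, with none lower. The median log2 difference was 1.60, against 0.03 over all 17296 genes, of which 0.873% were called higher and 0.249% lower. These shares are also the background for the counts of the lists below. Without the culture term 5 members were called from 4 means and 3 from 8. Fos had 1478, 1309.8 and 1202 CPM after KCl in the SE line and 7.39, 6.30 and 8.58 CPM at basal, and 451, 414, 501 and 413 CPM after KCl in the SA line and 5.85, 7.49, 11.1 and 6.09 CPM at basal. KCl levels did not overlap and basal levels did, with a log2 difference of 1.60 ± 0.175 (adjusted p = 7.9e-05). Jun had 366, 274 and 299 CPM after KCl in the SE line and 28.3, 31.5 and 31.3 CPM at basal. Its SA-line levels were 222, 188, 212 and 179 CPM after KCl and 65.4, 77.3, 94.9 and 72.9 CPM at basal, so that the SE line was higher after KCl and lower before it (log2 difference 1.98 ± 0.146, adjusted p = 1.1e-06). Fosl1, a FOS relative without a transactivation domain, averaged 46.9 ± 5.21 CPM after KCl in the SE line and 6.76 ± 0.561 CPM in the SA line (SD, n = 3 and 4), with a log2 difference of 1.77. Atf3, described above, Junb, Jund and the small MAF protein Maff were the other called members, and the last 3 differed by 1.22, 0.75 and 1.74. Fosb and Fosl2 were not called: the log2 fold changes of Fosb were 8.46 in the SE line and 9.24 in the SA line (difference -0.78, adjusted p = 0.16), and those of Fosl2 were 3.42 in the SE line and 3.93 in the SA line (difference -0.52, adjusted p = 0.10).

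EGR factors are zinc finger proteins, and NAB1 and NAB2 are corepressors that bind them. Of these 6 genes, 3 had a higher response in the SE line and none a lower one, with a median log2 difference of 0.75 (1.39 in the fit to log2(TPM + 1)). Without the culture term, in either form, 1 was called, as in wild types alone. Egr1 had 2568, 2239.6 and 2207 CPM after KCl in the SE line and 22.0, 17.8 and 23.5 CPM at basal. The SA line had 522, 448, 429.8 and 459.7 CPM after KCl and 14.7, 15.9, 15.1 and 14.4 CPM at basal. No library of the lines overlapped in either treatment, and the fold changes were 111 in the SE line and 30.8 in the SA line (log2 difference 1.85 ± 0.115, adjusted p = 2.4e-07). Egr3 differed by 2.38 ± 0.330 (adjusted p = 0.00081), and the SA-line cultures were not alike: their basal levels were 28.7, 22.9, 5.43 and 23.8 CPM, with the first wild type near the SE-line basal levels of 6.21, 5.98 and 6.39 CPM. Without that culture the Egr3 difference was 2.71 and stayed called. Egr2 differed by 1.28 ± 0.257 (adjusted p = 0.022) and lost the call without SE1 (1.11), without the first SA-line wild type (1.07) and without the second (1.18). Egr4, Nab1 and Nab2 were not called, and the log2 fold changes of Egr4 were 7.41 in the SE line and 7.23 in the SA line.

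The 3 NR4A receptors, orphan nuclear receptors that bind DNA without a known hormone, went in different directions. Nr4a1 had 2022, 1785 and 1633 CPM after KCl in the SE line and 8.11, 8.001 and 8.35 CPM at basal. Levels in the SA line were 639, 569, 652 and 554 CPM after KCl and 5.68, 6.81, 6.50 and 5.72 CPM at basal, and the log2 difference was 1.18 ± 0.122 (adjusted p = 4.4e-05). Nr4a3 averaged 696 ± 65.3 CPM after KCl in the SE line and 511 ± 44.1 CPM in the SA line, with a log2 difference of 0.95 ± 0.135 (adjusted p = 0.0010). Both responded more in the SE line, while Nr4a2, described above, responded less. In every SE-line culture the Nr4a2 response on the log2(CPM + 0.5) scale, 2.58, 2.49 and 2.32, was below the 4.98, 5.25, 5.61 and 5.30 of the SA line.

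Among 38 other immediate early regulators, 17 had a higher response in the SE line and 2 a lower one, against 0.873% and 0.249% of all genes. Their median log2 difference was 0.53. Arl4d, Maff, Srf, Trib1 and Sik1 are among the 17 and also stand in other lists described here. Tiparp, a mono-ADP-ribosyltransferase, had 258, 282 and 228 CPM after KCl in the SE line and 11.6, 11.6 and 11.3 CPM at basal, and 162, 136, 165 and 185 CPM after KCl in the SA line and 29.1, 24.2, 41.95 and 30.1 CPM at basal (log2 difference 2.09 ± 0.138, adjusted p = 4.3e-07). Its SE-line levels were the higher ones after KCl and the lower ones at basal. Ier2 averaged 253 ± 26.3 CPM after KCl in the SE line and 63.8 ± 10.01 CPM in the SA line (log2 difference 1.62 ± 0.133, adjusted p = 4.3e-06). Zfp36, which binds AU-rich elements and destabilises mRNAs, rose 3.96-fold in the SE line and was 1.04-fold in the SA line, where it was not called for KCl (log2 difference 1.93, adjusted p = 7.5e-06). Gadd45b and Gadd45g, stress sensors linked to DNA demethylation, and the antiproliferative gene Btg2 also responded more in the SE line, by 1.55, 1.66 and 1.92. Without the culture term 11 of the 38 were called from 4 means and 3 from 8. Klf5 and Klf6, Krüppel-like zinc finger factors, were the 2 with a lower response, at -1.15 and -0.72. Klf2, of the same family, went the other way: it had 5.14, 4.88 and 4.36 CPM after KCl in the SE line and 1.71, 1.24 and 1.05 CPM at basal, and 1.54, 1.65, 2.79 and 1.80 CPM after KCl in the SA line and 2.02, 3.28, 2.97 and 2.09 CPM at basal. All 3 SE-line cultures rose and all 4 SA-line responses were below 0 (log2 difference 2.26 ± 0.261, adjusted p = 0.00015). Npas4, a neuron-specific factor induced by calcium, had 2571, 2117 and 1974 CPM after KCl in the SE line and 9.19, 8.37 and 6.21 CPM at basal. In the SA line it had 504, 509, 546 and 487 CPM after KCl and 1.81, 1.49, 2.3 and 1.63 CPM at basal. The SE line was higher in both treatments, and the log2 fold changes were 8.13 in the SE line and 8.14 in the SA line (adjusted p = 0.99).

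ERK signalling is damped by genes that it induces, among them dual-specificity phosphatases (DUSP), Sprouty and Spred proteins and Errfi1. Of 16 such genes, 8 had a higher response in the SE line and none a lower one, against 0.873% and 0.249% of all genes, and the median log2 difference was 0.40. Without the culture term 3 were called from 4 means and 1 from 8. Dusp4, a nuclear phosphatase of MAP kinases, had 59.2, 55.5 and 50.5 CPM after KCl in the SE line and 11.4, 11.6 and 13.2 CPM at basal. SA-line libraries had 59.7, 51.2, 77.6 and 56.9 CPM after KCl and 35.1, 36.6, 41.3 and 37.4 CPM at basal. KCl levels overlapped and basal levels were lower in every SE-line library (log2 difference 1.49 ± 0.124, adjusted p = 4.4e-06). Dusp5, which acts on nuclear ERK, had 183, 175 and 163 CPM after KCl in the SE line and 7.43, 10.1 and 9.08 CPM at basal, and 20.6, 20.6, 20.6 and 18.9 CPM after KCl in the SA line and 2.75, 3.06, 7.89 and 2.55 CPM at basal. The log2 difference was 1.95 ± 0.281 (adjusted p = 0.0012), and 1.43 without the first SA-line wild type, whose basal level stood above the other SA-line ones. Dusp1, Dusp6, Dusp14, Spry2, Spry4 and Errfi1 made up the rest of the 8, between 0.49 and 1.56. In the ERK pathway itself 1 of 22 genes was called, Rasgrf1, a calcium-regulated activator of RAS, with a lower response in the SE line (-0.49 ± 0.0878, adjusted p = 0.0088). Over all genes 1.12% were called in either direction. The median log2 difference over the 22 was -0.02.

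SRF and its partners and the YAP coactivator induce cytoskeletal and matrix genes. Of 16 tested, 3 had a higher response in the SE line: Cyr61, the survival gene Mcl1 (0.96 ± 0.0901, adjusted p = 1.7e-05) and Srf itself (0.67 ± 0.101, adjusted p = 0.0018). The median log2 difference was 0.20, and without the culture term 2 were called from 4 means and 1 from 8. Ctgf, a close relative of Cyr61, was not called, with log2 fold changes of 0.45 in the SE line and 0.06 in the SA line (adjusted p = 0.13). Among 21 kinases and small GTPases induced by activity, 3 had a higher response in the SE line, Arl4d, the pseudokinase Trib1 (0.98 ± 0.119, adjusted p = 0.00022) and the salt-inducible kinase Sik1 (0.61 ± 0.0863, adjusted p = 0.0011), and the median was 0.25. Here too 2 were called from 4 means and 1 from 8 without the culture term.

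Synaptic and secreted effectors were mixed: of 36 tested, 22 rose with KCl in the SE line and 21 in the SA line. A higher response in the SE line was called for 4 and a lower one for 2, against 0.873% and 0.249% of all genes. Their median log2 difference was 0.09. Without the culture term 1 of the 36 was called. Arc, a synaptic protein that acts on AMPA receptor traffic (chromosome 15, 74669083 to 74672570, minus strand), had 1224, 965 and 955 CPM after KCl in the SE line and 6.62, 6.44 and 6.62 CPM at basal. The 4 SA-line cultures had 100.0, 74.5, 84.4 and 78.3 CPM after KCl and 1.68, 1.83, 2.97 and 2.25 CPM at basal. The SE line was higher in both treatments, and the fold changes were 159 in the SE line and 38.2 in the SA line (log2 difference 2.06 ± 0.194, adjusted p = 1.7e-05). Crh, the peptide corticotropin-releasing hormone, had 26.5, 24.7 and 25.1 CPM after KCl in the SE line and 2.297, 2.44 and 1.78 CPM at basal, and 9.11, 10.1, 0.637 and 8.41 CPM after KCl in the SA line and 3.31, 2.72, 0.0793 and 2.34 CPM at basal. The first SA-line wild type was low in both treatments, and without it the log2 difference was 1.81, against 1.80 ± 0.197 with it (adjusted p = 8.0e-05). Rgs2, an inhibitor of G protein signalling, and the granin-like peptide precursor Vgf were the other called members with a higher response (1.16 and 0.58).

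The secreted genes with a lower response in the SE line were Adcyap1 and Pcsk1. Adcyap1 encodes the neuropeptide PACAP, and had 9.75, 9.05 and 6.53 CPM after KCl in the SE line and 3.92, 3.86 and 3.24 CPM at basal. Its SA-line levels were 27.9, 27.1, 4.58 and 26.0 CPM after KCl and 4.52, 2.77, 1.19 and 3.26 CPM at basal. The first SA-line wild type was again low in both treatments, and its response of 1.59 on the log2(CPM + 0.5) scale was still above the 1.21, 1.13 and 0.91 of the SE line (log2 difference -1.64 ± 0.220, adjusted p = 0.00061). Pcsk1, a convertase that cleaves prohormones, rose 7.51-fold in the SE line and 16.2-fold in the SA line (log2 difference -1.11 ± 0.207, adjusted p = 0.012). It lost the call without SE1 (-0.94), without the SE-line wild type (-1.10) or without the second SA-line wild type (-0.97). Bdnf, Homer1 and Scg2, which encode a neurotrophin, a postsynaptic scaffold protein and a granin, were not called. Bdnf had log2 fold changes of 3.12 in the SE line and 3.44 in the SA line (difference -0.32, adjusted p = 0.59), Homer1 had 1.25 and 1.44 (difference -0.19, adjusted p = 0.57), and Scg2 had 1.79 and 2.09 (difference -0.30, adjusted p = 0.20), with the SE line given before the SA line.

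Adrb1 and Shh, a receptor and a ligand, are among the 14 named genes with the largest positive differences. Both rose in the SE line, and their log2 fold changes in the SA line were 0.18 for Adrb1 and -0.57 for Shh. Adrb1, the beta-1 adrenergic receptor (chromosome 19, 56722199 to 56733113, plus strand), had 92.5, 83.3 and 92.7 CPM after KCl in the SE line and 16.6, 17.7 and 17.3 CPM at basal. The SA line had 17.6, 18.3, 22.2 and 17.0 CPM after KCl and 12.1, 19.3, 20.3 and 14.9 CPM at basal, so that only the KCl libraries of the SE line stood apart (log2 difference 2.19 ± 0.125, adjusted p = 8.1e-08). Shh, the hedgehog ligand sonic hedgehog, had 33.5, 36.2 and 34.7 CPM after KCl in the SE line and 9.28, 9.89 and 11.2 CPM at basal. Levels in the SA line were 5.55, 5.26, 7.48 and 4.55 CPM after KCl and 10.6, 9.45, 6.23 and 8.01 CPM at basal. Shh rose in all 3 SE-line cultures and was called as falling in the SA line, where the first wild type alone was higher after KCl (log2 difference 2.36 ± 0.211, adjusted p = 1.0e-05, and 2.63 without that culture). Hic1, a zinc finger repressor, averaged 16.6 ± 3.89 CPM after KCl in the SE line and 7.50 ± 1.03 CPM in the SA line, and rose in both (log2 difference 2.56 ± 0.263, adjusted p = 4.4e-05). Its mean change with KCl was 15.7 CPM in the SE line and 5.16 CPM in the SA line, so its basal levels were low.

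The other large positive differences came from genes with low levels at basal in the SE line, as Hic1 also had. Nnt, a mitochondrial transhydrogenase that makes NADPH, had 6.82, 8.02 and 3.94 CPM after KCl in the SE line and 1.08, 1.196 and 0.913 CPM at basal. In the SA line it had 7.44, 11.8, 8.72 and 8.11 CPM after KCl and 11.1, 13.9, 9.28 and 5.47 CPM at basal. Its KCl levels overlapped between the lines, and the log2 difference was 2.65 ± 0.276 (adjusted p = 4.6e-05). GENCODE lists overlapping gene entries under the symbol Nnt, while levels here are per symbol, and how this bears on them was not tested. Stil, a centriole duplication gene, and Ccno, a cyclin of multiciliated cells, likewise had higher responses in the SE line (2.02 ± 0.207 and 1.99 ± 0.284) while every KCl level was below those of the SA line. Stil averaged 3.95 ± 0.151 CPM after KCl in the SE line and 11.4 ± 3.84 CPM in the SA line. Aqp1, the water channel of choroid plexus epithelium, was uneven among SE-line cultures, with 0.240, 1.78 and 15.3 CPM after KCl and 0.135, 0.506 and 3.33 CPM at basal. It had 3.57, 9.67, 13.2 and 5.92 CPM after KCl in the SA line and 4.30, 13.1, 12.9 and 5.64 CPM at basal. Its log2 difference of 2.22 ± 0.229 (adjusted p = 4.4e-05) lost the call without the SE-line wild type (1.78). The choroid plexus and ependyma list moved in the same way: its sum was 41.3 to 553 CPM after KCl and 23.9 to 196 CPM at basal in the SE line, against 241 to 970 CPM after KCl and 244 to 961 CPM at basal in the SA line. Of its 6 members, Ttr (1.27) and Clic6 (1.09) were called with a higher response in the SE line, and the median log2 difference was 0.83. Among the other 8 marker lists 1 gene was called, Dlx2 of the GABAergic list (0.68).

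**Figure D3:**
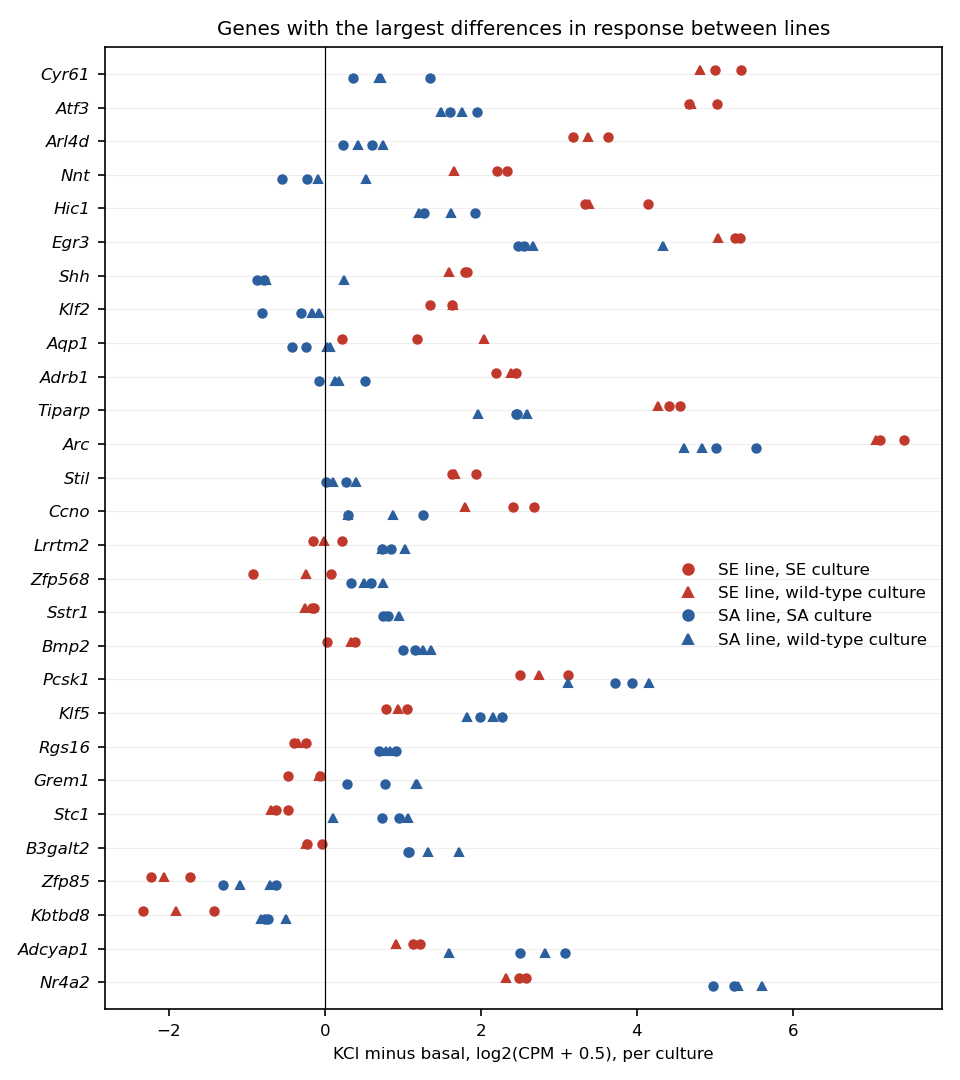
Response of each culture, KCl minus basal in log2(CPM + 0.5), for the 14 named genes with the largest positive and the 14 with the largest negative difference, with the SE line in red above the SA line in blue, circles for mutant and triangles for wild-type cultures. By the rule that chose these genes the lines do not overlap, and the spread within a line is widest for Aqp1 in the SE line (0.22 to 2.04) and Egr3 in the SA line (2.48 to 4.34).

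Of the 14 named genes with the largest negative differences, those besides Nr4a2, Adcyap1, Klf5 and Pcsk1 showed little or no rise in the SE line. B3galt2, a galactosyltransferase, had 145, 158 and 157 CPM after KCl in the SE line and 169, 162 and 186 CPM at basal. SA-line libraries had 72.1, 49.2, 55.5 and 65.6 CPM after KCl and 34.2, 23.1, 16.495 and 25.9 CPM at basal. It rose in all 4 SA-line cultures and was lower after KCl in all 3 SE-line cultures, where it was not called (log2 difference -1.47 ± 0.129, adjusted p = 7.9e-06). Sstr1, a somatostatin receptor, had 14.6, 12.99 and 12.7 CPM after KCl in the SE line and 16.1, 14.7 and 15.2 CPM at basal, and 49.1, 45.1, 15.0 and 45.8 CPM after KCl in the SA line and 27.8, 26.8, 7.53 and 26.5 CPM at basal. The first SA-line wild type was low in both treatments and had the largest SA-line response (log2 difference -1.02 ± 0.0990, adjusted p = 2.5e-05). Rgs16, a GTPase-activating protein for G proteins, had 19.9, 20.4 and 19.6 CPM after KCl in the SE line and 23.6, 27.0 and 25.01 CPM at basal. The 4 SA-line cultures had 17.9, 24.6, 18.1 and 19.7 CPM after KCl and 10.9, 12.8, 10.3 and 10.8 CPM at basal, so that the levels met after KCl (log2 difference -1.17 ± 0.0994, adjusted p = 6.0e-06). Rgs16 and Stc1, the glycoprotein hormone stanniocalcin 1 (-1.41 ± 0.188, adjusted p = 0.00053), were called as falling in the SE line and rising in the SA line.

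The BMP antagonist Grem1 (-1.20 ± 0.252, adjusted p = 0.030), the BMP ligand Bmp2 (-1.06 ± 0.236, adjusted p = 0.043) and the zinc finger gene Zfp568 (-0.98 ± 0.223, adjusted p = 0.049) passed the threshold narrowly. Grem1 and Zfp568 lost the call in 5 of the 7 fits that left out a culture, and Bmp2 in 6. Lrrtm2, a synaptic adhesion protein, averaged 142 ± 9.32 CPM after KCl and 140.0 ± 9.09 CPM at basal in the SE line, and 64.5 ± 13.3 CPM after KCl and 35.7 ± 5.02 CPM at basal in the SA line (-0.83 ± 0.101, adjusted p = 0.00022). Zfp85, a zinc finger gene, and Kbtbd8, an adaptor of a ubiquitin ligase, fell in both lines and further in the SE line. Zfp85 averaged 0.642 ± 0.159 CPM after KCl and 4.07 ± 0.238 CPM at basal in the SE line, and 1.77 ± 0.441 CPM after KCl and 3.79 ± 0.199 CPM at basal in the SA line (-1.55 ± 0.303, adjusted p = 0.017). The Kbtbd8 difference of -1.58 ± 0.277 (adjusted p = 0.0075) was 0.18 and 0.14 in the fits to TPM, and the cause was not tested. Without SE1, Zfp85 (-1.38) and Kbtbd8 (-1.28) were not called, nor was Zfp85 without the SE-line wild type (-1.53).

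Alpha-arrestins are adaptors for the ubiquitination of membrane proteins, and Txnip among them also binds thioredoxin and follows glucose. Txnip had 4.42, 4.69 and 4.17 CPM after KCl in the SE line and 7.12, 7.45 and 7.90 CPM at basal. Its SA-line levels were 5.94, 10.6, 12.02 and 9.18 CPM after KCl and 39.0, 45.9, 46.2 and 45.0 CPM at basal. It fell in both lines, and less far in the SE line, where it was lower in both treatments (log2 difference 1.48 ± 0.180, adjusted p = 0.00022). The other 6 genes of this list were not called, and Arrdc3 fell alike in both lines by the model, with log2 fold changes of -1.63 in the SE line and -1.63 in the SA line.

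Of 13 mitochondrially encoded respiration genes, 1 was called, mt-Nd5, a subunit of complex I, with a lower response in the SE line, and 12 of the 13 differences were below 0 (median -0.33). The list's medians per culture overlapped, at -0.43, -0.10 and -0.28 in the SE line and 0.27, -0.10, -0.18 and 0.32 in the SA line. The called gene mt-Nd5 had 3338, 4195 and 4510.3 CPM after KCl in the SE line and 6098, 5208 and 6992 CPM at basal. The SA line had 7027, 6541, 4607 and 7074 CPM after KCl and 6311, 7019, 4774 and 5925 CPM at basal. The log2 difference of -0.67 ± 0.123 (adjusted p = 0.010) lost the call without SE1 (-0.54) and without the SE-line wild type (-0.66). Of 20 targets of ATF4 and amino acid stress, 1 was called, Atf4 itself (-0.41 ± 0.0850, adjusted p = 0.026), which lost the call in 5 of the 7 fits that left out a culture. Its change in CPM was larger in the SE line, at a mean of 196 CPM against 111 CPM in the SA line. Among 16 genes of the heat shock and unfolded protein responses, the cochaperone Dnajb1 had a higher response in the SE line (0.74 ± 0.114, adjusted p = 0.0020). Crtc3, a coactivator of CREB, was the called member of 27 calcium/calmodulin and CREB pathway genes (0.44 ± 0.0948, adjusted p = 0.037), and it lost the call in 6 of the 7 such fits. Over all genes 1.12% were called, the background for these lists with 1 called gene each.

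No gene was called among 28 BAF subunits, 22 glutamate receptors, 22 voltage-gated calcium and sodium channels, 18 cholesterol synthesis genes, 18 cell cycle genes and 16 interferon response genes. With 1.12% of all genes called, lists of these sizes would hold few or no called genes at the background share. Their median log2 differences lay between -0.02 and 0.11. Smarca4 had 510.2, 447 and 461 CPM after KCl in the SE line and 452, 453 and 445 CPM at basal, and 414, 378, 383 and 373 CPM after KCl in the SA line and 429, 417, 379 and 442 CPM at basal (log2 difference 0.18 ± 0.0845, adjusted p = 0.44). The gene tables used here do not resolve the substituted residue.

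**Figure D4:**
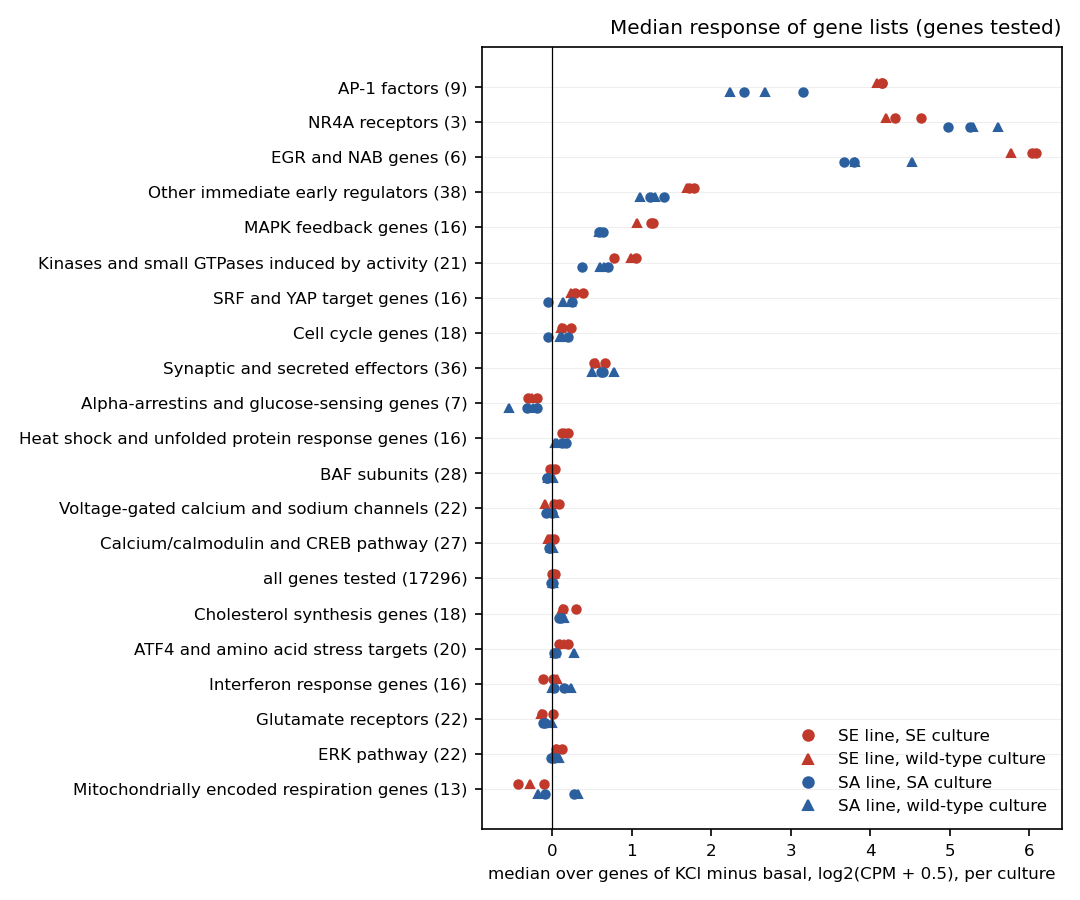
Median over the tested genes of a list of the response, KCl minus basal in log2(CPM + 0.5), for each culture, with the SE line in red above the SA line in blue, circles for mutant and triangles for wild-type cultures, and the number of genes in brackets. For the AP-1 list the SE-line medians are 4.15, 4.15 and 4.09 and the SA-line medians 3.15, 2.41, 2.24 and 2.68. The synaptic and secreted list overlaps. Medians of the NR4A list, of 3 genes, run the other way because a different gene is at the median, Nr4a3 in the SE line and Nr4a2 in the SA line. Gene by gene, 2 of the 3 responded more in the SE line, with a median log2 difference of 0.95.

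The direction of the differences was the same in mutant and in wild-type cultures. With SE1 and SE2 set against SA1 and SA2, all 151 genes were higher and all 42 genes with a value were lower. With the wild type of the SE line set against the 2 of the SA line, all 151 were higher and all 43 were lower. These cultures are the ones on which the genes were called, so the shared direction is a description. The median log2 difference over the 151 was 0.85 in the mutants and 0.90 in the wild types, and over the 43 it was -0.85 in the mutants and -0.82 in the wild types. Cyr61 differed by 4.34 in the mutants and 4.12 in the wild types, and Nr4a2 by -2.74 in the mutants and -3.30 in the wild types. Tested alone, the mutants gave 84 called genes and the wild types, with 1 residual degree of freedom, gave 54. The test of whether the line difference itself differed between mutants and wild types called 0 of 17296 genes (edgeR, lowest adjusted p = 0.46), with 592 at an unadjusted p under 0.05. This does not show that the differences were equal, since few degrees of freedom remain.

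**Figure D5:**
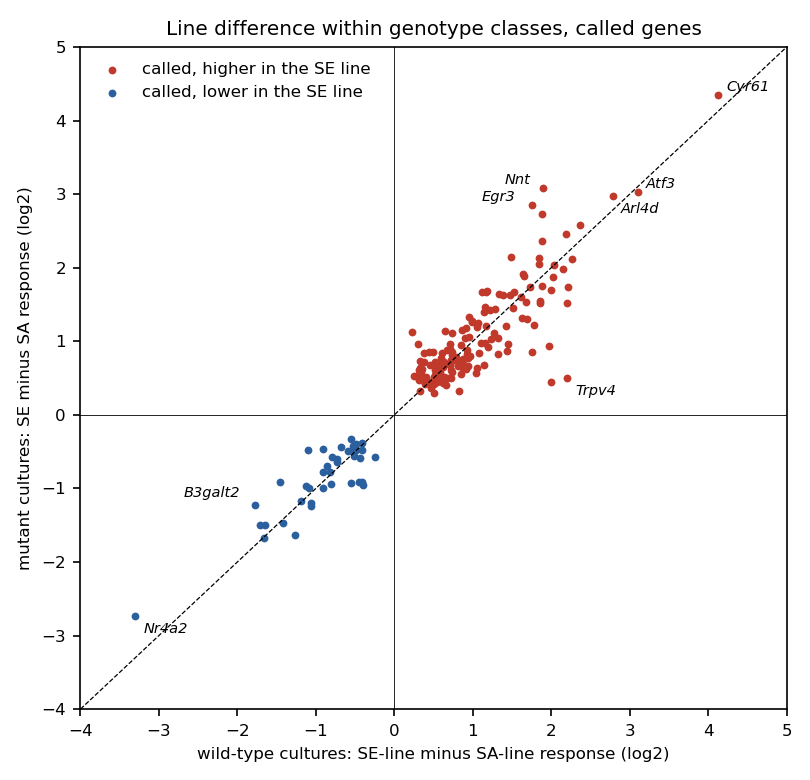
Difference in response between the lines among mutant cultures (vertical axis, SE minus SA) and among wild-type cultures (horizontal axis, SE line minus SA line), in log2 units, for the 190 called genes with a mean of at least 1 CPM; the dashed line marks equal values. All red points (higher in the SE line) lie above 0 on both axes and all blue points below 0, with Cyr61 at 4.34 and 4.12 and Trpv4 at 0.50 and 2.20.

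Picking induced genes in a line raises the responses of that line, so genes were picked in each line in turn. When the SA line was fitted on its own, 155 genes rose by 2-fold or more, and of these 93 (60.0%) had a larger response in the SE line, with a median log2 difference of 0.22. Of all 17296 genes 9679 (56.0%) had a larger value in the SE line, so the share among these 155 is close to the background. The median was 0.13 in the fit to log2(TPM + 1) and 0.14 in wild types alone. The median responses on the log2(CPM + 0.5) scale were 1.80, 1.71 and 1.58 in SE1, SE2 and the SE-line wild type, and 1.46, 1.36, 1.28 and 1.47 in SA1, SA2 and the SA-line wild types. Of 250 genes picked in the SE line alone, 212 (84.8%) had a larger response in the SE line, with a median of 0.80. Of the 122 genes in both picks, 88 (72.1%) had a larger response in the SE line, with a median of 0.42. Of the 155 picked in the SA line, 44 were called with a higher and 8 with a lower response in the SE line, and of the 250 picked in the SE line 96 and 4. Over all genes 0.873% were called higher and 0.249% lower.

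Fold changes depend on the basal level, which differed between the lines for many of these genes. Every SE-line basal library was below every SA-line one for 69 of the 151 genes with a higher response, above for 26 and overlapping for 56, against 27.8% of all genes below and 27.9% above. Of the 43 genes with a lower response, 15 had basal levels above those of the SA line, 5 below and 23 overlapping. After KCl, all SE-line libraries were above all SA-line ones for 94 of the 151 (29.6% of all genes) and below for 24 (27.6% of all genes). The signed change in CPM, where a smaller fall counts as higher, was also compared. It was higher in the SE line for 144 of the 151 genes and lower for 7. Of the 43, 41 were lower in the SE line and 2, Nr4a2 and Atf4, were higher. On this scale the cultures did not overlap, in the direction of the call, for 127 of the 151 and 35 of the 43. They lay wholly in the other direction for 1 of the 151 and 2 of the 43. The part of the basal levels in the differences was not tested.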

How the data were processed

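RNA of 14 mouse cortical neuron libraries was compared as 7 cultures. The gene tables hold estimated counts and TPM per gene symbol, made by the authors with kallisto 0.43.1 on GRCm38, per the submitters' processing notes. The labels do not say how transcripts were summed to genes. Of the deposited estimated counts above 0, 66.0% were not whole, and all were rounded. The deposited TPM values, which the authors scaled to transcript length and library, entered 2 alternatives. Estimated counts assign reads shared by close copies of a gene in parts, so levels of such copies are uncertain.

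edgeR 4.0.16 in R 4.3.3 was used with TMM scaling, filterByExpr over line and treatment, a quasi-likelihood fit with a level per culture and a KCl response per line (5 residual degrees of freedom), and Benjamini-Hochberg adjustment over 17296 of 52459 symbols. A gene was called at an adjusted p under 0.05. Fold changes are those of the fit, and values per culture use log2(CPM + 0.5). The test was checked on simulated data, whose settings and outcome are not given here, so no error rate for these cultures follows from it. Alternatives used DESeq2 1.42.0, limma 3.58.1 on log2 TPM with pseudocounts of 1 and 0.1, other scalings, no filter, no culture term, other weights and each culture left out.

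Named genes were the 14 with the largest positive and the 14 with the largest negative difference among called genes with a gene name, a mean of at least 1 CPM and responses that did not overlap between the lines, up to 4 members with the lowest p of each list, and Smarca4. Members, lists and this rule were chosen with earlier results of these data known. Arrdc3, Bdnf, Btg2, Dusp1, Dusp6, Egr4, Errfi1, Fosb, Fosl2, Gadd45b, Gadd45g, Homer1, Junb, Jund, Klf6, Maff, Nab1, Npas4, Scg2, Spry4, Vgf, the markers and the genes of the closing observations lie outside the rule and were named after their values were seen. Gene positions are from GENCODE on GRCm38. Depth was alike in all libraries, and the fitted coefficient of variation between libraries (common value, 0.0641 as a fraction) holds the spread beyond counting error. Transcript tables were not used.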

Additional observations from a re-analysis of the deposited data

Results flagged for a closer look

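The difference in KCl response between the lines passed the test of the difference itself for 194 genes. For 8 genes named by the rule every SE-line culture moved one way and every SA-line culture the other. Klf2 was higher after KCl in the SE line and lower in the SA line (log2 difference 2.26), and B3galt2 (-1.47), Stc1 (-1.41), Grem1 (-1.20), Rgs16 (-1.17) and Sstr1 (-1.02) were lower after KCl in the SE line and higher in the SA line. These 6 differences were called. Dpf2, a BAF subunit (0.21, higher after KCl in the SE line), and Oasl2, an interferon response gene (-0.83, lower in the SE line), had the same pattern of signs and were not called (edgeR, adjusted p = 0.31 and 0.54). Klf6, named outside the rule, also had it and was called (-0.72).

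In 9 of 98 groups of 4 SA-line cultures, the response of a culture lay apart from the others, where chance flags about 1 in 20. The first SA-line wild type did so for Egr3 (4.34, with the others at 2.48 to 2.67), Dusp5 (1.33, with the others at 2.56 to 2.70), Shh (0.25, with the others at -0.87 to -0.75) and Smarcb1 (0.0368, with the others at -0.06 to -0.05). The second wild type did so for Usp18 (0.67, with the others up to 0.11) and Grin2d (0.10, with the others at 0.18). SA1 did so for Atf4 (0.90, with the others at 1.13 to 1.17) and Ifi27 (-0.30, with the others at 0.19 to 0.23), and SA2 for Cdc20 (-0.0492, with the others at 0.06 to 0.08). The 3 cultures of the SE line are too few for this check.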

How the results depend on the processing

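The number of called genes was 194, with 151 higher and 43 lower. It was 506 (295 higher, 211 lower) with no filter on low counts, where 35350 genes were tested, 84 (69 and 15) in mutant cultures alone, 54 (42 and 12) in wild types alone, 101 (90 and 11) with limma on log2(TPM + 1) and 98 (88 and 10) on log2(TPM + 0.1). Weighting the genotypes of a line equally gave 27 lower. Leaving out a culture gave 125 to 356 called, 103 to 216 higher and 19 to 140 lower. The causes were not tested.

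The basal and KCl libraries of a culture are not shown to be a pairing: their deviations from the line means correlated at 0.07, -0.07 and 0.22 in the SE line and at 0.55 to 0.86 in the SA line, and 6 of 7 basal libraries matched their own KCl library best. With no replicate block, 50 genes (46 and 4) were called from 4 means and 20 (19 and 1) from 8. Of 53 called named genes, 26 and 37 lost the call there.

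Of these 53, 13 kept the call under all 18 alternatives, and 42 whichever culture was left out. Kbtbd8 reversed to 0.18 and 0.14 in the limma fits. The median of the calcium/calmodulin and CREB list, 0.0288, was -0.0516 in wild types alone and -0.0293 to 0.0365 when a culture was left out. That of the ERK list, -0.0227, was 0.0254 in mutants alone and 0.0249 and 0.0262 in the limma fits. For genes induced in the SE line the median of 0.80 was 0.68 in mutants and 0.59 with log2(TPM + 1), and 0.70 to 0.85 with a culture left out. For those induced in the SA line the median of 0.22 was 0.15 to 0.29 with a culture left out, 0.13 with log2(TPM + 1) and 0.14 in wild types alone. RLE and upper-quartile scaling moved the median gene by -0.01 and -0.03 and called 189 and 194. The signed change in CPM, added after the values were seen, kept the direction of 144 of 151 and 41 of 43 genes. The fits to mutants alone and to wild types alone have 2 and 1 residual degrees of freedom, which limits their calls.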

Other observations

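Other called genes, chosen after their values were seen, were receptors and signalling genes. Drd1, a dopamine receptor, was nearly flat in the SE line (-0.05) and lower after KCl in the SA line (-1.52), a log2 difference of 1.48. Smad7, an inhibitor of TGF-beta signalling, differed by 1.79, Hes1, a Notch target, by 1.01, Slc2a1, a glucose transporter, by 1.12 and Vegfa, a growth factor for vessels, by 0.41. The somatostatin receptor Sstr2 responded less in the SE line (-0.53). Zinc finger genes were called in both directions, with Zfp703 (1.57), Zfp82 (1.07), Zfp446 (0.60) and Zfp61 (0.57) higher and Zfp280b (-0.81), Zfp87 (-0.73) and Zfp719 (-0.51) lower in the SE line.

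The ion channel Trpv4 differed by 1.79, the bicarbonate transporter Slc4a5 by 1.68 and the secreted lysophospholipase Enpp2 by 1.31. Among mutants the differences were 0.50, 0.45 and 0.86 in this order, and among wild types 2.20, 2.00 and 1.76. The SE-line side of the wild-type values is 1 culture. No called gene passed the test of whether the line difference differed between mutants and wild types. The choroid plexus marker sum differed between cultures within both lines, and its part in these differences was not tested.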
